A study of Vulpes vulpes with 48 samples.

Results

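A set of genes counted at modest levels in fox brain stood higher in the prefrontal cortex of tame than of aggressive silver foxes (Vulpes vulpes). It holds 8 of the 13202 genes listed in either of the deposited tables. They were picked from the cortex comparison of the lines, for a higher level in tame foxes and a level mostly under 50 CPM (counts per 1000000 counts of the library). All 8 are listed in both tables. The files name genes by dog Ensembl identifier and pair none with a symbol, and 0 of the 13202 identifiers matched the fox gene table used here (RefSeq, assembly VulVul3), so the genes carry no name, role, position or sequence below.

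The animals were male foxes of 1.5 years, from a line selected for tame behaviour or a line selected for aggressive behaviour. RNA came from the right prefrontal cortex of tame foxes (12 libraries), the same region of aggressive foxes (12 libraries), the right basal forebrain of tame foxes (10 libraries of the 12 in the labels; ID488 and ID490 were not analysed here) and the right basal forebrain of aggressive foxes (12 libraries). The labels list no treatment. Poly(A) RNA was sequenced on an Illumina instrument. The labels do not say whether both regions were taken from the same foxes, and p-values measure the spread between these libraries.

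The tame and aggressive lines are a long-running model of domestication, bred from farm foxes by choosing parents on their response to people. The prefrontal cortex takes part in planning, in social behaviour and in the restraint of emotional responses. The basal forebrain holds the large cholinergic neurons that project to the cortex and act on attention and arousal. In dissected tissue, a gene's level is set by the mixture of cells as well as by the RNA in each: fewer cells of a type and less RNA per cell cannot be told apart in these data. Markers of neurons, glia or of either region could not be checked, since no identifier could be tied to a symbol.

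Depth lay between 6.23 and 17.2 M per cortex library (M, 1000000 counts) and between 6.25 and 13.6 M per forebrain library. In tame cortex 5 libraries, ID182, ID186, ID187, ID190 and ID191, stood apart from the rest. They scored 50.9 to 159.5 on the first principal component of the cortex (78.1% of the variance of log2 CPM), where the other 19 libraries lay between -37.7 and -14.1. Libraries ID187 and ID191 also had scaling factors of 0.748 and 0.768 (TMM, a trimmed mean of log ratios between libraries), against 0.971 to 1.08 in all other cortex libraries. Cortex values are therefore given with and without these 5 libraries. Levels are TMM-scaled CPM. Gene lengths are not known here, so genes are set side by side in CPM only for the limit of 50 CPM, not as relative amounts of transcript.

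In the cortex, the 8 genes stood 1.43-fold to 2.33-fold higher in tame foxes, with a median log2 fold change of 0.91 against 0.018 over all 12705 genes tested. Without the 5 libraries the range was 1.28-fold to 1.96-fold and the median 0.52. These values chose the genes and are a description, not a test. All 8 genes lay within the 0.338% of tested genes called higher in tame cortex (43 genes with an adjusted p under 0.05 by edgeR's quasi-likelihood fit), and without the 5 libraries 5 of the 8 were among the 0.11% called (14 genes). The 3 that then missed the threshold were ENSCAFG00000028490, ENSCAFG00000011895 and ENSCAFG00000017040. For none of the 8 did every tame cortex library lie above every aggressive one, which held for 0 of the 12705 tested genes (0%). Without the 5 libraries it held for 0 of the 8 and for 0.0157% of tested genes.

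A mean under 50 CPM did not by itself pick the 8 genes, since 25 other called genes also had one. Of the 43 called genes, 33 had a mean under 50 CPM over the 24 cortex libraries, and 8 of those 33 are described here. Among the 8, the highest mean was 42.1 CPM (ENSCAFG00000017040) and the lowest 2.69 CPM (ENSCAFG00000011895). The called genes nearest to the limit, neither of them among the 8, were ENSCAFG00000008561 at 47.2 CPM (log2 fold change 0.53, SE 0.11) and ENSCAFG00000010596 at 51.8 CPM (log2 fold change 0.91, SE 0.20).

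**Figure D1:**
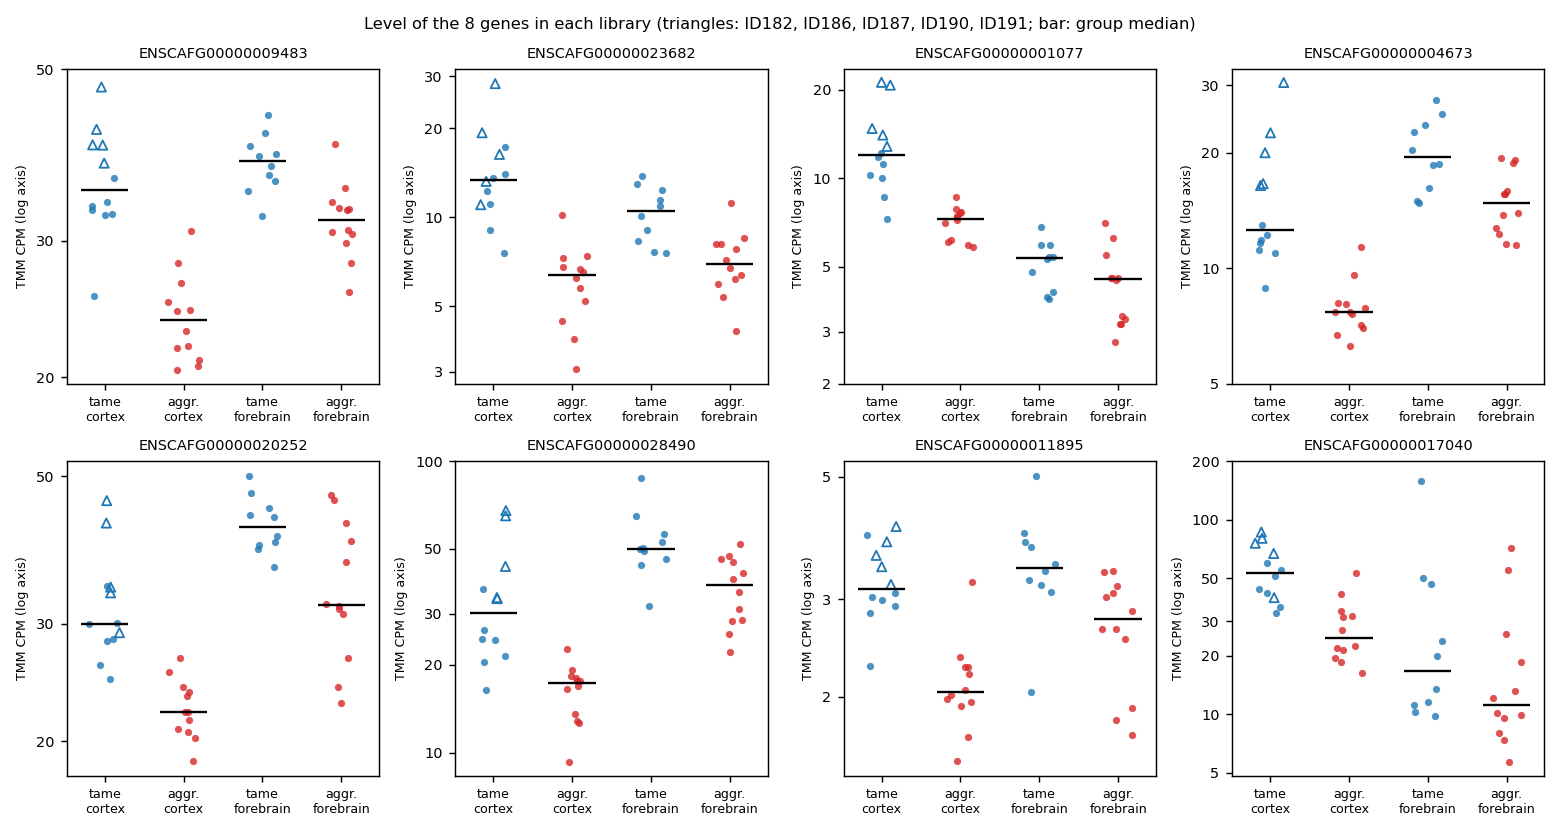
TMM-scaled CPM (log axis) of the 8 genes in each library, by line and region; triangles are tame cortex libraries ID182, ID186, ID187, ID190 and ID191, and bars are group medians. In every panel the tame median lies above the aggressive median in both regions. The forebrain libraries of ENSCAFG00000017040 spread from 5.69 to 158 CPM.

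In the comparison of regions with all libraries, 3 of the genes were called lower in the forebrain, as were 30.2% of the genes tested. The high tame cortex values that chose the genes are part of this comparison and favour such calls, so the calls only order the description. For ENSCAFG00000001077 the call stood without the 5 cortex libraries, and for ENSCAFG00000017040 and ENSCAFG00000023682 it did not (edgeR adjusted p = 0.106 and 0.219). ENSCAFG00000001077 ran from 7.28 to 21.2 CPM in tame cortex (median 11.97) and from 5.82 to 8.60 CPM in aggressive cortex (median 7.29). Only tame library ID183 was not above the highest aggressive library. The 5 libraries that stand apart were its 5 highest, at 12.8 (ID182), 14.03 (ID190), 14.8 (ID186), 20.7 (ID191) and 21.2 CPM (ID187), and the other 7 reached 12.2 CPM. Its cortex log2 fold change was 0.86 (SE 0.15), and 0.53 (SE 0.10) without them. In the forebrain it ran from 3.90 to 6.81 CPM in tame (median 5.35) and from 2.78 to 7.03 CPM in aggressive foxes (median 4.54). These forebrain ranges lie almost on top of each other, with 0 of 10 tame libraries above the highest aggressive one.

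ENSCAFG00000017040 ran from 33.1 to 86.5 CPM in tame cortex (median 53.5) and from 16.3 to 53.0 CPM in aggressive cortex (median 24.7). The groups overlapped: 6 of 12 tame libraries exceeded the highest aggressive library, ID233. Among those 6 were ID186, ID187, ID190 and ID191, at 67.1, 75.7, 80.3 and 86.5 CPM, while ID182 stood at 39.7 CPM among the other 7, which ran up to 60.04 CPM. Its cortex log2 fold change was 0.99 (SE 0.20), and 0.71 (SE 0.20) without the 5. In the forebrain the gene was spread far more widely, from 9.82 to 158 CPM in tame (median 16.7) and from 5.69 to 71.3 CPM in aggressive foxes (median 11.1). Its SD there was 128% of the mean in tame and 102% in aggressive foxes, against counting errors of 5.09% and 6.50%. High values came from 5 forebrain libraries of both lines, tame ID483 at 158, ID484 at 50.05 and ID541 at 46.9 CPM, and aggressive ID530 at 71.3 and ID540 at 55.4 CPM. The other 17 forebrain libraries lay between 5.69 and 25.7 CPM.

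ENSCAFG00000023682 is the only one of the 8 with fractional counts, in all 24 cortex and all 22 forebrain libraries, and such fractions can arise where a read is split between genes. It ran from 7.56 to 28.3 CPM in tame cortex (median 13.4) and from 3.06 to 10.2 CPM in aggressive cortex (median 6.39). In all, 10 of 12 tame libraries lay above the highest aggressive one. The 5 libraries that stand apart were mixed with the others for this gene, at 11.02 (ID182), 13.2 (ID190), 16.3 (ID187), 19.3 (ID186) and 28.3 CPM (ID191), against 7.56 to 17.3 CPM in the other 7. Its cortex log2 fold change was 1.22 (SE 0.19), and 0.97 (SE 0.18) without the 5, in both cases the highest of the 8. In the forebrain it ran from 7.56 to 13.8 CPM in tame (median 10.5) and from 4.11 to 11.2 CPM in aggressive foxes (median 6.95). Tame forebrain libraries exceeded the aggressive median in 10 of 10 cases and the highest aggressive library in 4.

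With all libraries, ENSCAFG00000009483 and ENSCAFG00000011895 were not among the 63.9% of genes called different between regions. Without the 5 cortex libraries ENSCAFG00000009483 passed, higher in the forebrain by 0.17 on the log2 scale (edgeR adjusted p = 0.00395). ENSCAFG00000009483 ran from 25.5 to 47.4 CPM in tame cortex (median 34.96) and from 20.5 to 30.9 CPM in aggressive cortex (median 23.7). Tame library ID188 alone was not above the highest aggressive library. The 5 libraries that stand apart held the 5 highest values, 37.8 (ID187), 39.9 (ID186 and ID190), 41.8 (ID182) and 47.4 CPM (ID191), and the other 7 ran from 25.5 to 36.2 CPM. The cortex log2 fold change was 0.59 (SE 0.093), and 0.43 (SE 0.081) without them. In the forebrain the gene ran from 32.3 to 43.6 CPM in tame (median 38.04) and from 25.8 to 40.02 CPM in aggressive foxes (median 31.98). Each of the 10 tame forebrain libraries exceeded the aggressive median, and 2 exceeded the highest aggressive library.

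ENSCAFG00000011895 is the least counted of the 8, with 10 to 55 counts per cortex library and 12 to 64 per forebrain library. It ran from 2.28 to 4.06 CPM in tame cortex (median 3.14) and from 1.53 to 3.22 CPM in aggressive cortex (median 2.04). Tame libraries exceeded the aggressive median in 12 of 12 cases, and 5 exceeded the highest aggressive library, ID235. Its SD was 15.9% of the mean in tame cortex and 19.8% in aggressive cortex, where counting alone gives 16.4% and 19.4%, so the spread within each line was close to the counting error. In the other 7 genes the SD within a cortex line was 1.18 to 9.53 times the counting error. The cortex log2 fold change was 0.61 (SE 0.11), and 0.50 (SE 0.13) without the 5 libraries, which lay at 3.19 to 4.06 CPM. In the forebrain it ran from 2.04 to 5.02 CPM in tame (median 3.42) and from 1.70 to 3.38 CPM in aggressive foxes (median 2.76), and 5 of 10 tame libraries exceeded the highest aggressive one.

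The remaining genes, ENSCAFG00000004673, ENSCAFG00000020252 and ENSCAFG00000028490, were called higher in the forebrain, with and without the 5 cortex libraries. So were 33.8% of the genes tested with all libraries, and 5366 of 12695 without the 5. ENSCAFG00000004673 ran from 8.90 to 30.5 CPM in tame cortex (median 12.6) and from 6.27 to 11.4 CPM in aggressive cortex (median 7.70). Its 5 highest libraries were again the 5 that stand apart, at 16.4 (ID186), 16.6 (ID190), 20.02 (ID191), 22.6 (ID182) and 30.5 CPM (ID187), while the other 7 ran from 8.90 to 12.98 CPM. The log2 fold change of 0.96 (SE 0.17) was 0.52 (SE 0.10) without them. In the forebrain it ran from 14.8 to 27.4 CPM in tame (median 19.5) and from 11.5 to 19.4 CPM in aggressive foxes (median 14.8). Of the 10 tame forebrain libraries 5 lay above the highest aggressive library and 9 above the aggressive median.

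ENSCAFG00000020252 ran from 24.8 to 45.9 CPM in tame cortex (median 30.04) and from 18.7 to 26.7 CPM in aggressive cortex (median 22.2), and 10 of 12 tame libraries exceeded the highest aggressive one. Libraries ID187 and ID191 were its highest at 45.9 and 42.5 CPM, and ID182, ID190 and ID186 stood at 29.1, 33.4 and 34.1 CPM within the range of the other 7, 24.8 to 34.2 CPM. The cortex log2 fold change was 0.52 (SE 0.095), the lowest of the 8, and 0.36 (SE 0.070) without the 5. Its forebrain levels ran from 36.6 to 50.1 CPM in tame (median 41.98) and from 22.9 to 46.8 CPM in aggressive foxes (median 32.02). Tame forebrain was the tighter group, with an SD of 9.77% of the mean against 23.6% in aggressive forebrain, and each of its 10 libraries exceeded the aggressive median.

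ENSCAFG00000028490 ran from 16.4 to 67.7 CPM in tame cortex (median 30.05) and from 9.32 to 22.7 CPM in aggressive cortex (median 17.3). The highest aggressive library, ID235, was exceeded by 9 of 12 tame libraries. Libraries ID187, ID191 and ID182 were highest at 67.7, 64.99 and 43.6 CPM, and ID186 and ID190 stood at 34.07 and 33.8 CPM within the range of the other 7, 16.4 to 36.5 CPM. The cortex log2 fold change of 1.08 (SE 0.21) was 0.57 (SE 0.14) without the 5, that is 2.12-fold with them and 1.49-fold without. In the forebrain it ran from 31.96 to 87.6 CPM in tame (median 50.2) and from 22.1 to 51.97 CPM in aggressive foxes (median 37.5). Tame library ID483 was the highest, as for ENSCAFG00000017040 and ENSCAFG00000020252, and 4 of 10 tame libraries exceeded the highest aggressive one. Among tame forebrain libraries ID483 was also the highest for ENSCAFG00000001077 and the lowest for ENSCAFG00000009483.

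The line difference was also tested in the forebrain, whose libraries the rule for the genes did not use. The genes were proposed with forebrain results known, however, so no count in the forebrain is independent of their choice. Fold changes were above 0 in 8 of 8 genes, as in 52.8% of the 12915 genes tested, and ran from 1.16-fold to 1.71-fold with a median log2 fold change of 0.41 against 0.0099 over all genes. None passed an adjusted p of 0.05 (0 of 8; 0.0697% of all genes were called higher in tame forebrain by edgeR's quasi-likelihood test, and 0.0929% in either direction). At an unadjusted p under 0.05, 6 of 8 were higher in tame foxes, against 5.75% of all genes. DESeq2 called 2 of the 8 (0.418% of all genes), ENSCAFG00000009483 and ENSCAFG00000023682, and a fit with surrogate variables called ENSCAFG00000028490 (0.225% of all genes).

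The smallest forebrain p belonged to ENSCAFG00000023682, with a log2 fold change of 0.55 (SE 0.14, p = 0.000842, adjusted p = 0.198, edgeR). ENSCAFG00000009483 followed at 0.24 (SE 0.065, p = 0.000964, adjusted p = 0.208, edgeR). For these genes every tame forebrain library exceeded the aggressive median. ENSCAFG00000004673 stood at 0.44 (SE 0.12, p = 0.00141, adjusted p = 0.226, edgeR) and ENSCAFG00000028490 at 0.54 (SE 0.16, p = 0.00216, adjusted p = 0.241, edgeR). ENSCAFG00000020252 had 0.31 (SE 0.11) and ENSCAFG00000011895 had 0.38 (SE 0.15), with unadjusted p-values of 0.0109 and 0.0167 from edgeR. All 6 differences were more than 2 times their standard error, and none survived adjustment over the whole table.

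The other 2 genes were short of an unadjusted p of 0.05. ENSCAFG00000001077 had a forebrain log2 fold change of 0.21 (SE 0.16, p = 0.185, adjusted p = 0.565, edgeR). ENSCAFG00000017040 had 0.77 (SE 0.54, p = 0.169, adjusted p = 0.556, edgeR), the largest forebrain value of the 8 and the least certain. It rested on tame library ID483: without it the value was 0.058, and without aggressive library ID530 it was 1.15. Without ID483 the 8 genes had a median of 0.33, all 8 stayed above 0 (49.1% of all genes), 6 had an unadjusted p under 0.05 with higher levels in tame foxes (3.8% of all genes) and 0 passed the adjustment (0.0464% of all genes).

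**Figure D2:**
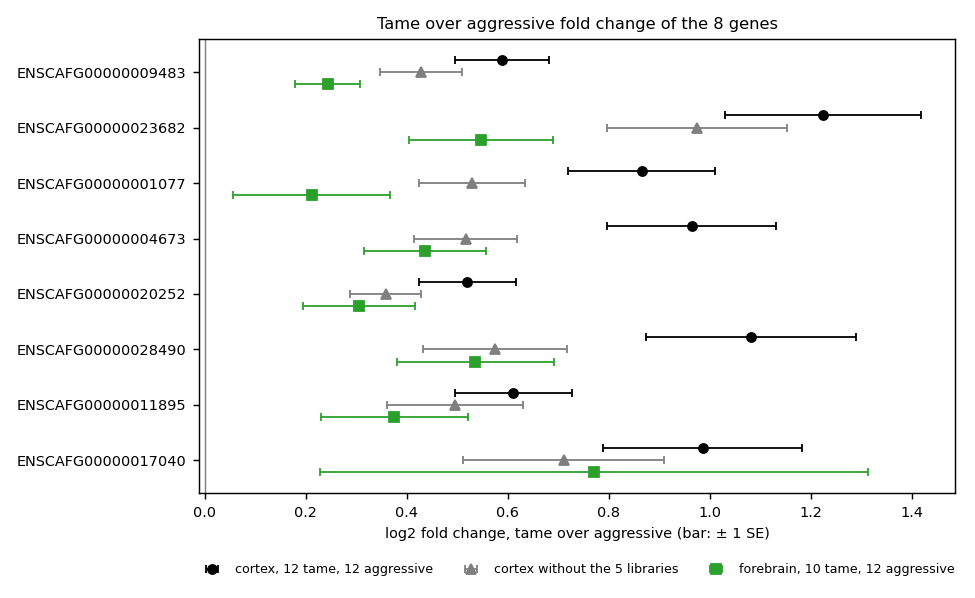
Log2 fold change, tame over aggressive, of the 8 genes in the cortex with all 24 libraries (circles), in the cortex without the 5 libraries that stand apart (triangles) and in the forebrain (squares); bars are 1 SE to each side. All points lie above 0, the forebrain values run from 0.21 to 0.77, and the bar of ENSCAFG00000017040 in the forebrain is the widest (SE 0.54).

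With all 24 cortex libraries, the 8 fold changes were smaller in the forebrain than in the cortex. Without the 5 libraries this held for 7 genes, the exception being ENSCAFG00000017040, at 0.71 in the cortex against 0.77 in the forebrain on the log2 scale. In a joint fit of the 46 libraries, the forebrain line difference minus that of the cortex ran from -0.66 (SE 0.25) in ENSCAFG00000023682 and -0.64 (SE 0.21) in ENSCAFG00000001077 to -0.20 (SE 0.15) in ENSCAFG00000020252 and -0.19 (SE 0.57) in ENSCAFG00000017040. Whether the line effects differ between regions was not tested for these genes, since a large cortex value is what chose them. Without the 5 cortex libraries the cortex value stood within 1 forebrain SE of the forebrain value in 5 genes, ENSCAFG00000004673, ENSCAFG00000020252, ENSCAFG00000028490, ENSCAFG00000011895 and ENSCAFG00000017040. The SE of the cortex value was left out of this measure, so it does not separate these genes from the rest. For ENSCAFG00000017040 the forebrain SE was 0.54.

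The regions were compared in the same joint fit, averaged over the lines with equal weight. The cortex side of this average holds the tame libraries whose high values chose the genes, so these region values are not free of that choice. At an adjusted p under 0.05, 6 of the 8 genes differed, 3 lower and 3 higher in the forebrain, where 63.9% of the 12695 genes tested did (30.2% lower and 33.8% higher). ENSCAFG00000001077 was 0.439 times its cortex level in the forebrain (log2 fold change -1.19, SE 0.11, edgeR adjusted p = 2.79e-13). On the log2 scale ENSCAFG00000017040 differed by -0.74 (SE 0.29, edgeR adjusted p = 0.0211) and ENSCAFG00000023682 by -0.32 (SE 0.12, edgeR adjusted p = 0.0228). In aggressive foxes alone ENSCAFG00000023682 was not lower in the forebrain. Its mean on the scale of the joint fit was 6.65 CPM there (SD 1.70) and 6.55 CPM in the cortex (SD 2.01). For ENSCAFG00000017040 these means were 19.1 CPM (SD 19.5) and 30.2 CPM (SD 11.6). Higher in the forebrain were ENSCAFG00000028490 by 1.64-fold (log2 fold change 0.71, SE 0.13, edgeR adjusted p = 9.50e-06), ENSCAFG00000004673 by 1.37-fold and ENSCAFG00000020252 by 1.24-fold. Their adjusted p-values were 0.000191 and 0.000235 (edgeR).

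With all libraries ENSCAFG00000009483 and ENSCAFG00000011895 did not pass, with log2 fold changes of 0.049 (SE 0.056) and 0.029 (SE 0.090). The 5 cortex libraries moved 3 of these calls. Without them ENSCAFG00000009483 was higher in the forebrain (0.17, SE 0.052, edgeR adjusted p = 0.00395), while ENSCAFG00000023682 (-0.16, SE 0.12, adjusted p = 0.219) and ENSCAFG00000017040 (-0.56, SE 0.32, adjusted p = 0.106) no longer passed; 74% of all genes were then called. Limma-voom, which averages on the log scale, gave ENSCAFG00000017040 -1.22 (SE 0.26, adjusted p = 5.05e-05) with a replicate block, a fit that called 66.6% of all genes. Region and deposited table coincide, so a difference between the tables cannot be told apart from one between the regions.

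**Figure D3:**
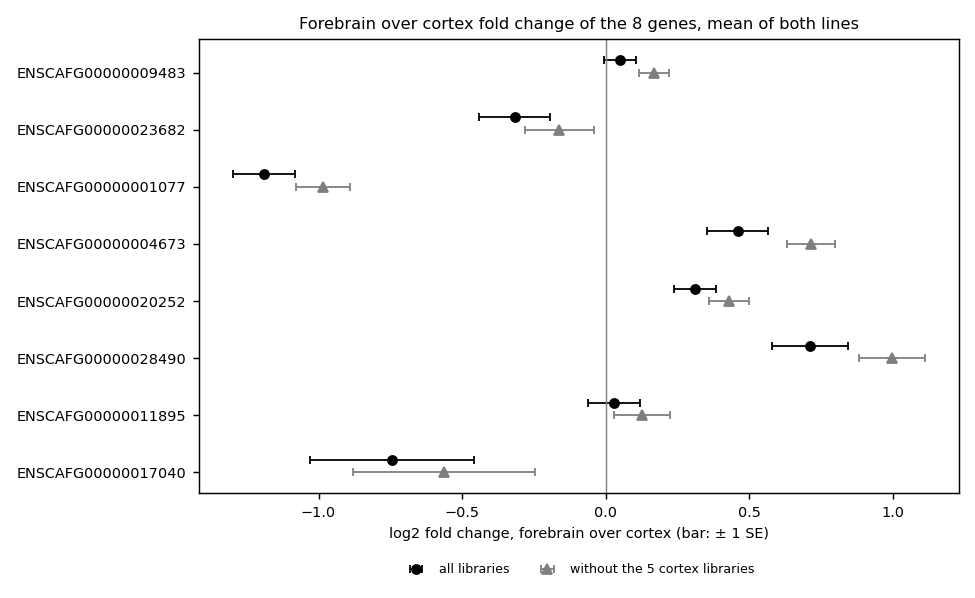
Log2 fold change, forebrain over cortex and averaged over both lines, of the 8 genes with all 46 libraries (circles) and without the 5 cortex libraries that stand apart (triangles); bars are 1 SE to each side. Among the circles ENSCAFG00000001077 lies far to the left at -1.19 and ENSCAFG00000028490 farthest to the right at 0.71. Every point moves to the right without the 5 libraries, that of ENSCAFG00000028490 to 0.996.

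The order of the 4 groups, on CPM scaled over all 46 libraries averaged per group, was set against their spread: neighbours in the order are called close where their means differ by no more than the larger of their SDs. A high place of tame cortex is what the genes were chosen for and is a description. With all libraries, for ENSCAFG00000009483, ENSCAFG00000023682 and ENSCAFG00000011895 the order was tame cortex, tame forebrain, aggressive forebrain, aggressive cortex. In each the tame groups were close to one another, and a gap beyond the SD separated them from the aggressive groups, for example 9.73 ± 2.10 CPM (SD, n = 10 tame forebrain libraries) against 6.65 ± 1.70 CPM (SD, n = 12 aggressive forebrain libraries) for ENSCAFG00000023682. For ENSCAFG00000004673, ENSCAFG00000020252 and ENSCAFG00000028490 tame forebrain came first, then tame cortex and aggressive forebrain, each close to the next, and aggressive cortex lay lowest beyond the SD. Without the 5 libraries tame cortex moved down a place in 5 genes. It fell below tame forebrain, though close to it, for ENSCAFG00000009483 (34.6 ± 3.49 CPM, SD, n = 7, against 35.4 ± 3.04 CPM, SD, n = 10) and ENSCAFG00000011895 (3.22 ± 0.533 against 3.26 ± 0.709 CPM), and below aggressive forebrain, again close to it, for ENSCAFG00000004673, ENSCAFG00000020252 and ENSCAFG00000028490. Aggressive cortex still lay lowest in these 5 genes. With all libraries in ENSCAFG00000028490 the last step was from 34.3 ± 9.05 CPM in aggressive forebrain to 17.4 ± 3.84 CPM in aggressive cortex (SD, n = 12 each).

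By group means ENSCAFG00000001077 alone of the 8 had both cortex groups first, with and without the 5 libraries. With all libraries these means were 13.7 ± 4.55 CPM in tame and 7.56 ± 0.964 CPM in aggressive cortex (SD, n = 12 each). Its forebrain groups followed beyond the SD, at 4.82 ± 0.914 CPM (SD, n = 10 tame libraries) and 4.10 ± 1.23 CPM (SD, n = 12 aggressive libraries), and were close to one another. ENSCAFG00000017040 had no gap beyond the SD between any neighbours, its groups running from 59.5 ± 19.1 CPM in tame cortex to 19.1 ± 19.5 CPM in aggressive forebrain (SD, n = 12 each). Its tame forebrain mean, 33.2 ± 42.5 CPM (SD, n = 10), includes ID483 at 158 CPM. By medians, scaled within each region, both cortex groups came first for this gene too. They were 53.5 CPM in tame and 24.7 CPM in aggressive cortex, against 16.7 and 11.1 CPM in tame and aggressive forebrain.

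How the 8 genes vary with each other was measured within lines, on log2 CPM less the line mean, over the 22 forebrain libraries and over the 12 aggressive cortex libraries. Tame cortex was left out because its libraries fall into clusters. Of 28 pairs in the forebrain 4 passed an adjusted p of 0.05, and of 28 in aggressive cortex 0 did, with 2 at an unadjusted p under 0.05 (two-sided permutation tests within line, 100000 shuffles, adjusted over all 56 correlations). In the forebrain r had a median of -0.087 and 11 of 28 pairs were positive. In aggressive cortex the median was -0.014, with 14 of 28 positive. The share of pairs of other genes that would pass was not measured, so the 4 pairs are not shown to be particular to these genes.

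ENSCAFG00000001077 and ENSCAFG00000017040 varied together in the forebrain (r = 0.77, permutation p = 3e-05, adjusted p = 0.00168; Spearman rho = 0.74, permutation p = 4e-05, adjusted p = 0.0014). The relation held without the 2 libraries farthest from the median of ENSCAFG00000001077 (r = 0.71, n = 20, permutation p = 0.00016) and without ID483 (r = 0.77). In aggressive cortex the same pair had r = 0.45 (rho = 0.51, n = 12, permutation p = 0.142 and p = 0.0931; adjusted p = 0.626 and p = 0.435), and r = 0.13 without its 2 farthest libraries.

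The other 3 pairs joined ENSCAFG00000004673, ENSCAFG00000020252 and ENSCAFG00000028490. ENSCAFG00000004673 varied with ENSCAFG00000028490 (r = 0.71, permutation p = 0.00037, adjusted p = 0.00691; rho = 0.72, permutation p = 0.00026, adjusted p = 0.00485) and with ENSCAFG00000020252 (r = 0.67, permutation p = 0.00022, adjusted p = 0.00616; rho = 0.77, permutation p = 5e-05, adjusted p = 0.0014). ENSCAFG00000020252 and ENSCAFG00000028490 had r = 0.62 (permutation p = 0.00294, adjusted p = 0.0412; rho = 0.72, permutation p = 0.0006, adjusted p = 0.0084). Without the 2 farthest libraries the r values of these pairs were 0.72, 0.65 and 0.62, and the last no longer passed (permutation p = 0.00367, adjusted p = 0.0514). In aggressive cortex they were 0.39, -0.26 and 0.11 (n = 12, permutation p = 0.201, 0.416 and 0.746). The difference between the regions in these correlations was not tested.

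**Figure D4:**
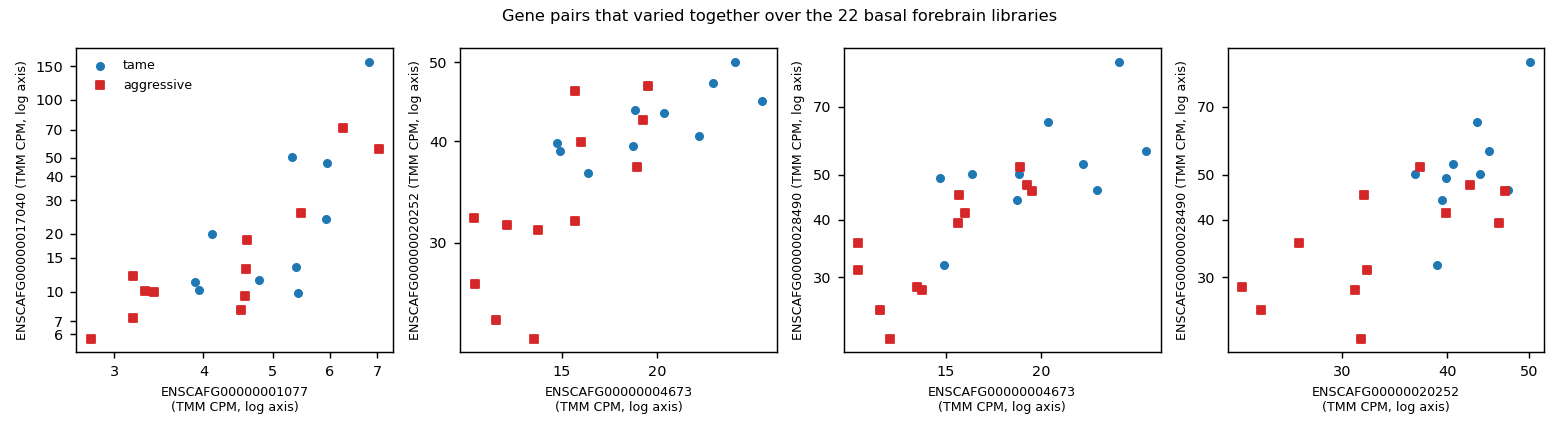
The 4 gene pairs that passed the test over the 22 forebrain libraries, as TMM-scaled CPM on log axes, with tame libraries as circles and aggressive libraries as squares. In each panel libraries high in one gene tend to be high in the other within both lines, with r within lines of 0.77, 0.67, 0.71 and 0.62 from left to right.

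For each of the 8, the gene most like it was sought among 12555 others. The measure was Pearson's r of deviations from the group mean over the 34 aggressive cortex and forebrain libraries. Each region was scaled on its own. Whether library preparation or scaling bears on these r was not tested. These r are the highest of many and are a description. ENSCAFG00000017040 had the closest match, ENSCAFG00000029826, at r = 0.94 (0.96 in the forebrain alone, 0.69 in aggressive cortex, and 0.92 without ID483). That gene also spread widely over forebrain libraries, from 17.4 to 127 CPM. ENSCAFG00000028490 was followed by ENSCAFG00000013467 (r = 0.85) and ENSCAFG00000001077 by ENSCAFG00000014220 (r = 0.78), whose forebrain level ran from 20.8 to 198 CPM.

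Over the 34 libraries the matches of the other genes were looser. In aggressive cortex alone the 8 matches differed little, with r from 0.57 (ENSCAFG00000020252) to 0.69 (ENSCAFG00000017040). ENSCAFG00000020252 was most like ENSCAFG00000005536 (r = 0.76) and ENSCAFG00000004673 most like ENSCAFG00000004082 (r = 0.74). ENSCAFG00000023682 was most like ENSCAFG00000030770 (r = 0.69, tied with 1 other gene), and ENSCAFG00000011895 most like ENSCAFG00000025565 (r = 0.67). The forebrain level of ENSCAFG00000030770 was low, from 0.40 to 3.28 CPM. ENSCAFG00000009483, at r = 0.63 with ENSCAFG00000010098, had the loosest match of the 8. The cortex log2 fold changes of the 8 matching genes ran from -0.038 (ENSCAFG00000014220) to 0.67 (ENSCAFG00000029826), and 5 of the 8 lay under 0.2.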

How the data were processed

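The authors deposited 1 table of estimated counts per dog Ensembl gene and region, with 4.36% of cortex and 4.42% of forebrain values not whole. The submitters' processing notes name CASAVA 1.8.2, FastQC, Trimmomatic, BWA, bedtools, edgeR and the dog build canFam3, with no role or order; filters and the origin of the fractions are not given in the sources used here. Counts were rounded to whole numbers. Genes were kept with filterByExpr (minimum count 10) and libraries scaled by TMM. Lines were compared within each region, and regions in a joint fit of the 4 groups, by edgeR 4.0.16 (R 4.3.3; quasi-likelihood F-test, robust, Benjamini-Hochberg over all genes, threshold 0.05). The SE of a log2 fold change is its size over the square root of F. Log2 CPM used a prior count of 2. Alternatives were limma 3.58.1, DESeq2 1.42.0, sva 3.50.0, the Wilcoxon test, other scalings and filters, and left-out libraries. The fits were tested on simulated data.

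The 8 genes and the tests were chosen with earlier results of these data known. Besides the 8, the text names the gene most like each and the called genes nearest to 50 CPM on each side. Counting error is 1 over the square root of the mean count. The annotation lists no dog identifier, so lists of marker symbols could not be used.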

Additional observations from a re-analysis of the deposited data

Results flagged for a closer look

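Tame forebrain library ID483 lay far above the other 9 tame forebrain libraries for ENSCAFG00000017040, at 158 CPM where the next highest tame library had 50.05 CPM. It was 1 of 8 such checks, 1 for each gene in the 10 tame forebrain libraries, and chance marks about 1 check in 20. The groups of 12 were not checked in this way. Its library total was 12.6 M (1000000 counts), and it had the highest score on the first component of the forebrain, 70.7, where the next library had 25.3. The part of these in the result was not tested.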

How the results depend on the processing

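The forebrain test called 0 of the 8 genes, and 0 in each of the 22 fits that left out 1 library, with other scalings, without the filter, with limma-voom and with the Wilcoxon test. DESeq2 called 2, ENSCAFG00000009483 and ENSCAFG00000023682 (adjusted p = 0.0492 for both; 0.418% of all genes), and 4 surrogate variables called 1, ENSCAFG00000028490 (adjusted p = 0.0116; 0.225% of all genes). No forebrain log2 fold change reversed (0 under any setting). The cortex median of the 8, 0.91, ran from 0.80 to 0.96 in the 24 fits that left out 1 library, and was 0.52 without ID182, ID186, ID187, ID190 and ID191. Between regions, 5 or 6 genes passed under each setting; upper-quartile scaling lost ENSCAFG00000023682 (-0.24, adjusted p = 0.0850). Limma-voom with a replicate block on shared last 2 identifier digits (20 pairs) called the same number as without it, 6 of 8 (8453 and 8411 of all genes). Paired libraries' deviations from their group means had r from -0.279 to 0.333 across genes, 14 of 20 over 0.1, and 8 of 20 cortex libraries correlated best with their own number, a check that did not settle whether the numbers pair the libraries. The correlations past the threshold were 4 with Pearson, 4 with Spearman and 3 without the 2 farthest libraries. Low counts limit ENSCAFG00000011895 most.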
